A study of Mus musculus with 6 samples.

Results

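The regions described here are the 5067 open-chromatin peaks of a naive control mouse retina that overlapped no peak of either retina library with WIF1 overexpression. They were chosen by comparing measured peak lists: a control peak was a member when no peak of the 2-week or the 4-week library shared 1 bp with it. The members were 5067 of the 54429 control peaks (9.31%). A further 2564 control peaks (4.71%) overlapped a peak of the 2-week library only, 2184 (4.01%) one of the 4-week library only, and 44614 (82.0%) peaks of both. In the other direction, 34730 of the 103911 peaks of the 2-week library (33.4%) and 6949 of the 75686 peaks of the 4-week library (9.18%) overlapped no peak elsewhere. These counts are fixed by the rule and were not tested.

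Nuclei came from the retinas of C57BL/6J mice and were assayed with the 10x Genomics multiome kit, which measures RNA and, as ATAC, open chromatin in each single nucleus. The groups were Ctrl, from naive animals, and WIF1-2w and WIF1-4w, from animals given an AAV2/2 vector that expresses Wif1 from the CMV promoter, taken at 2 and 4 weeks AVI, an abbreviation that the labels do not expand. Each group had 2 eyes and 1 library, and whether the eyes were pooled is not given in the sources used here. The design describes 1 Wif1 vector with an HA tag and a GFP reporter and 1 with the tag alone, and which of them was used was not stated. A vector without Wif1 is named in the design, but the control analysed here had received none, so injection, vector and WIF1 cannot be told apart in any difference between the libraries. With 1 library per group no difference was tested, and every 95% interval below covers counting error only.

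ATAC-seq cuts and tags DNA that is not wrapped in nucleosomes, and a peak caller marks the stretches where cuts pile up. Open regions at gene starts are mostly promoters, shared between cell types, and open regions far from them include enhancers, many of which are open in a single cell type. The retina is built of rod and cone photoreceptors, bipolar cells that carry their signal inward, inhibitory horizontal and amacrine interneurons, retinal ganglion cells whose axons form the optic nerve, and Müller glia. Amacrine cells release GABA or glycine and form many types. WIF1 is a secreted inhibitor that binds Wnt ligands. A peak called in 1 library and missed in another can reflect closed chromatin, too few cuts from the cells that hold it, or a different split of a wide open stretch into peaks, and the peak lists alone do not separate these.

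Of the members whose counts were concentrated in amacrine-like nuclei, by a rule given below, 11 held a whole promoter window of the RefSeq table (GRCm38.p6). The 4 of them with the most amacrine-like counts are shown, since they are the amacrine-rich members with readable sequence at a gene start. Each line gives the 250 bases before an annotated start, 5′ to 3′ on the gene's strand, with matches to the 9 searched motifs in capitals. The Slc6a12 window is chr6:121343138-121343387 on the plus strand, and the peak around it is chr6:121342985-121343875. The Akap1 window is chr11:88851504-88851753 on the minus strand, the Rnf222 window chr11:68888303-68888552 on the plus strand and the Cybrd1 window chr2:71117804-71118053 on the plus strand.
Slc6a12: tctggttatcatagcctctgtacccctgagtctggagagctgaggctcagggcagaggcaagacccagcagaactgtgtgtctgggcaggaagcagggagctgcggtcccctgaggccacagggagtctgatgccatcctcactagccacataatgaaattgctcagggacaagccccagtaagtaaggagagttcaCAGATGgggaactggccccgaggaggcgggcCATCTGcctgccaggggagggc
Akap1: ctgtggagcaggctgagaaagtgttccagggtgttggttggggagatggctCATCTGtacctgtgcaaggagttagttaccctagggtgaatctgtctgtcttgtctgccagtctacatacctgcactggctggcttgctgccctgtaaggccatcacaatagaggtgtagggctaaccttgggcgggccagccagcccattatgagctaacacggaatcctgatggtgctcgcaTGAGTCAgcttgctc
Rnf222: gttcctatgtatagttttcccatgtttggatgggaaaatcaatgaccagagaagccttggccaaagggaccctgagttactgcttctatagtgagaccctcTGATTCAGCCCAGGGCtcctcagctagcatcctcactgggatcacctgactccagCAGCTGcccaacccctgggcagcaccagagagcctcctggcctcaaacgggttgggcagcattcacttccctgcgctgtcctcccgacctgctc
Cybrd1: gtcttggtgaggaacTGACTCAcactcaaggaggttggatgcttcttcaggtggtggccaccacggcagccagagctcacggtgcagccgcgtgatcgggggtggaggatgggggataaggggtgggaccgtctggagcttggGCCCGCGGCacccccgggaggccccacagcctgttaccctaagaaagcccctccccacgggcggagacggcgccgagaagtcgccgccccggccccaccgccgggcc

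Slc6a12 encodes the betaine and GABA transporter, and its window held 2 copies of CAGATG, an E-box bound by basic helix-loop-helix proteins. Akap1, a mitochondrial anchor of protein kinase A, had 1 CAGATG and 1 TGANTCA, the AP-1 type of site. Rnf222, a RING finger gene, had CAGCTG, which is another E-box, and a TGANTCA that touched a GCCNNNGGC, the AP-2 type of site, so that both stand in 1 run of capitals. Cybrd1, a ferric reductase, had GCCNNNGGC and TGANTCA. Matches were searched on both strands, and the search also took in TAATCC (the CRX type), the homeodomain core TAATTA, the nuclear receptor half-site AGGTCA, the MAF half-site TGCTGAC and the octamer ATGCAAAT. Slc6a12 has other annotated starts upstream of the printed window, and its peak held 2 whole RefSeq windows.

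In full, 96 RefSeq windows of 300 bases (250 before to 50 after a start) lay inside 80 members. Their median GC content was 57.2%, between the 62.7% of the 11503 windows inside control peaks shared with both other libraries and the 52.7% of all 32841 windows. The median number of CpG dinucleotides was 8, against 23 and 7. TGANTCA stood in 12.5% of the members' windows, 3.94% of windows in shared peaks and 7.81% of all windows. CAGATG stood in 22.9%, 10.3% and 17.2%, CAGCTG in 25%, 14.8% and 16.3%, and GCCNNNGGC in 32.3%, 27.3% and 16.6%. The homeodomain motifs TAATCC and TAATTA were in 3.12% and 2.08% of the members' windows, 5.62% and 1.83% of windows in shared peaks, and 7.06% and 5.29% of all windows. These shares describe letters in the windows, and no binding was measured.

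The control library was the shallowest in ATAC counts and the deepest in RNA. The 3 libraries held 37525307 (control), 90490537 (2 weeks) and 71304238 (4 weeks) ATAC counts in peaks, and 7157, 8829 and 8840 nuclei passed the filters and a doublet call. Median ATAC counts per kept nucleus were 3280, 6297 and 5583, median RNA molecules (UMIs) 1630, 799 and 1199, and median mitochondrial shares of RNA 1.88%, 0.519% and 0.596%. Between 142 and 207 barcodes occurred in both libraries of a pair. In the control matrix 75.9% of the values above 0 were exactly 2, as when both ends of a fragment fall in a peak, so counts were not independent and the intervals are too narrow. The lists of peaks were made separately in each library, and a library gives no counts outside its own peaks.

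The members were weak peaks. Together they held 583679 counts, 1.56% of the control's ATAC counts. A member had a median of 91 counts over all barcodes, with 46 at the 10th and 178 at the 90th percentile, while control peaks shared with both libraries had a median of 306. Member lengths ran from 153 to 1207 bp with a median of 831 bp. Of control peaks under 50 counts, 633 of 1028 (61.6%) were members, and of those with 50 or more and under 100 counts 2352 of 6021 (39.1%). Starting at 100, 200 and 500 counts, each bin ending where the next began, the shares were 10.4%, 2.22% and 0.683%, and at 1000 or more counts 9 of 10158 peaks (0.0886%) were members.

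**Figure D1:**
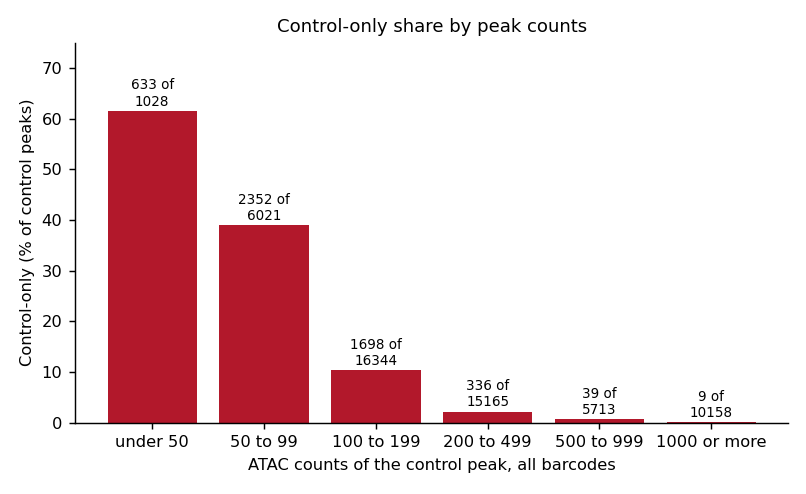
Share of control peaks that were called only in the control (y axis, %), by the peak's ATAC counts over all control barcodes (x axis, bins). The share goes from 61.6% under 50 counts to 0.0886% at 1000 or more.

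The levels of the member regions in the other libraries were not measured, and only their control levels can be set beside the peaks called there. A member of 91 counts corresponds to 219 counts at the depth of the 2-week library and to 173 at that of the 4-week library, which are 2.41 and 1.90 times as deep. The 10th percentile of called peaks was 0.751 CPM (counts scaled to the library's ATAC total) in the 2-week library and 1.16 CPM in the 4-week library. In the control, 97.6% and 91.3% of the members were at or above those levels, and 123 and 440 members were below them.

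Some members stood beside a peak of another library. The gap to the nearest such peak was 250 bp or less for 528 members (10.4%), over 250 and up to 1000 bp for 839 (16.6%), over 1 and up to 10 kb for 3083 (60.8%) and more for 617 (12.2%). Promoters made up 19.7%, 18.2%, 3.83% and 10.7% of these groups. Just inside the limit, 16 members had a gap under 10 bp and a median of 86 counts. Just outside it, 9 shared peaks overlapped by under 10 bp and had a median of 99 counts.

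The strongest members were mostly of this kind. Next to a peak 61 bp away, the member at Cryzl1 (chr16:91728590-91728827) held 2214 counts in 238 bp, and the one at Akt1s1 (chr7:44849792-44850493), whose product is a subunit of the mTORC1 kinase complex, held 2073 with a gap of 274 bp. Stk35 (1551 counts), Gm11175 (1550), Vldlr, which encodes the very low density lipoprotein receptor (1234), Pmm1 (1209), Zbed3 (1100), the histone acetyltransferase gene Crebbp (1032) and the photoreceptor cilium gene Pcare (983) followed. Among these 9 members the gap ran from 57 to 613 bp. Amacrine-like CPM at them ran from 0.547 to 1.15 times that of the other named nuclei, so none was specific to amacrine-like nuclei.

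The member with the most counts lay in a ribosomal RNA-like locus. It held 25999 counts at chr17:39845492-39846412, 418 bp from a start of the noncoding gene Gm26917. The control had 3 peaks there, of 579, 693 and 495 CPM, the middle one being the member, and the other libraries had 2 each, at the flanks, of 597 and 438 CPM at 2 weeks and 430 and 285 CPM at 4 weeks. Called peaks covered 2561 bp in Ctrl, 1512 bp in WIF1-2w and 1653 bp in WIF1-4w, so their sums of 1767, 1034 and 715 CPM are not over the same length. RNA of the noncoding gene Gm42418, also in this locus, was 4106 CPM over kept control nuclei, 322 CPM at 2 weeks and 2418 CPM at 4 weeks, and that of AY036118 was 1042, 81.7 and 1051 CPM. Near-identical repeat copies make the counting of reads here uncertain.

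Members lay far from gene starts. The files give each gene an interval of starts without strand, and distances were taken from the peak to the nearer end of it. The median distance was 18187 bp for members and 7564.5 bp for peaks shared with both. Members within 1000 bp of a start, called promoters below, numbered 441 (8.70%), of which 169 held a start, against 32.6% of shared peaks. Another 25.4% of members were 1 to 10 kb away, 58.1% were 10 to 100 kb away and 398 (7.85%) farther. RefSeq genes covered 69.9% of members and 68.6% of shared peaks.

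Within a band of counts the difference was small. With 50 or more and under 200 counts, the 4050 members had a median distance of 18851 bp and the 14494 shared peaks 19305 bp, and promoters were 6.99% and 9.97%. Median counts in this band were 93 for members and 138 for shared peaks, so strength was not fully equal. Peak strength went with most of the difference in position.

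Nuclei were clustered by RNA and given a name with the ending -like from fixed marker genes. Kept control nuclei were 4295 rod-like, 1518 bipolar-like, 402 amacrine-like, 378 cone-like, 157 Müller-like, 65 endothelial-like, 48 pericyte-like, 36 ganglion-like, 25 horizontal-like, 15 microglia-like and 218 unnamed. The ganglion-like nuclei are 1 sub-cluster of cluster 14 with 8 ganglion and 7 amacrine markers, with Gad1 and Calb2 beside Nefl among its leading genes and Gad1 at 334 CPM, so that name is doubtful. Amacrine-like nuclei numbered 204 at 2 weeks and 111 at 4 weeks. The name rested on Slc32a1, the vesicular GABA and glycine transporter, and Pax6 in each of its 3 clusters. Cluster 14 also had the GABA-synthesis genes (Gad1 at 255 CPM and Gad2 at 130 CPM), with the glycine transporter Slc6a9 at 189 CPM. Clusters 16 and 17 had Slc6a9 at 704 and 978 CPM. Cluster 14 was mixed, as Slc6a9 was among the markers of its sub-clusters 14.2, 14.5 and 14.9 (43, 28 and 14 control nuclei).

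Amacrine-like nuclei held 16.7% (16.6% to 16.8%) of the 456151 member counts in kept control nuclei. They held 9.45% of the counts in peaks shared with both libraries, 19.6% of those in peaks shared with the 2-week library only and 15.5% of those shared with the 4-week library only. A high amacrine-like share was therefore common to the 3 sets of control peaks that at least 1 library lacked. Rod-like nuclei held 44.7% of member counts and 49.7% of shared counts, bipolar-like nuclei 19.5% and 25.6%, cone-like nuclei 3.76% and 4.80%, Müller-like nuclei 3.08% and 2.29%, and unnamed nuclei 7.85% and 4.39%. Scaled to the class, members took 2.61% of the ATAC counts of amacrine-like nuclei, 2.64% of unnamed, 2.05% of ganglion-like, 2.01% of Müller-like, 1.37% of rod-like, 1.19% of cone-like and 1.16% of bipolar-like nuclei.

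**Figure D2:**
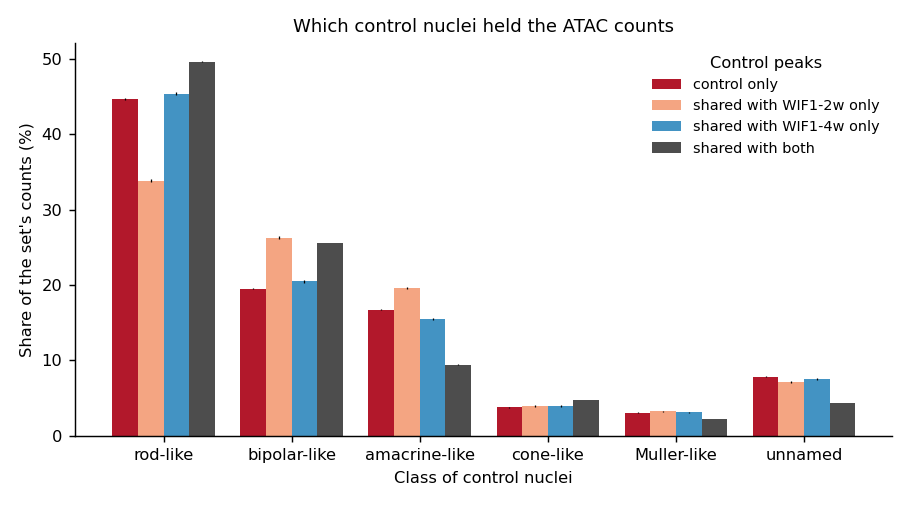
Share of ATAC counts held by the nuclei of each class drawn (y axis, %), kept control nuclei. The sets are members and control peaks shared with the 2-week library only, the 4-week library only or both. The amacrine-like bars are 16.7%, 19.6%, 15.5% and 9.45% in that order. The rod-like and bipolar-like bars are lower in members than in peaks shared with both.

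A few nuclei carried much of this. The 358 nuclei with the most member counts, 5% of those kept, held 42.0% of all member counts. These nuclei were ranked by the same counts, so a share above 5% is built in, and their share of all ATAC counts is not given. To describe them with a measure that uses no member, the promoter share was taken: of a nucleus's counts in peaks common to the 3 libraries, the percentage within 1000 bp of a gene start. It was chosen after the data were seen. Under 60% promoter share there were 123 of 7157 control nuclei, 1 nucleus at 2 weeks and 0 at 4 weeks. These 123 nuclei held 16.8% of member counts and 5.29% of ATAC counts, and had a median of 10615 ATAC counts against 3268.5 in the others.

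The share of counts in members was higher at lower promoter share, in amacrine-like and in rod-like nuclei alike. Only 8.70% of members were promoters, against 32.6% of peaks shared with both, so the 2 shares are not independent. The share of counts in other peaks far from gene starts was not set beside them. Over all control nuclei members took 4.80% of counts under 60%, 2.68% at 60 to 64%, 1.53% at 64 to 68%, 1.21% at 68 to 72%, 0.965% at 72 to 76% and 1.01% above. Amacrine-like nuclei went from 4.66% (25 nuclei) through 3.89%, 2.56% and 1.56% to 1.42% (75 nuclei, 72 to 76%). Rod-like nuclei went from 5.18% (30 nuclei) to 0.942% over the same range. Of the amacrine-like nuclei, 25 of 402 (6.22%) were under 60%, and they held 27.3% of the class's member counts and 15.3% of its ATAC counts. The part of promoter share in which peaks were called was not tested.

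**Figure D3:**
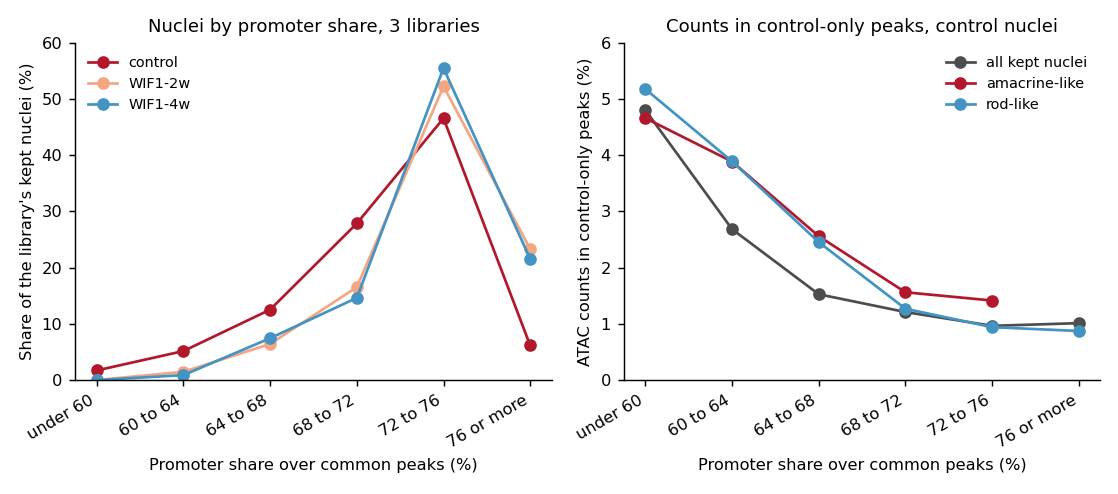
Left, share of each library's kept nuclei (y axis, %) by promoter share over common peaks (x axis, %), with 123 control nuclei, 1 nucleus at 2 weeks and 0 at 4 weeks in the lowest bin. Right, share of ATAC counts in members (y axis, %) in the control nuclei of the same bins, from 4.80% to 1.01% over all kept nuclei.

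Without the nuclei under 60%, amacrine-like nuclei held 14.6% of member counts and 8.48% of shared counts. A stricter removal took the nuclei below the 1st percentile of promoter share of their own class in the other libraries. It removed 621 control nuclei, 76 of them amacrine-like, which held 42.5% of all member counts. What was left gave amacrine-like nuclei 10.1% of member counts and 6.74% of shared counts, and members then took 1.57% of the amacrine-like, 1.17% of the Müller-like and 0.999% of the rod-like ATAC counts.

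To find members that belong to a class, a peak was called concentrated when the class's CPM was at least 4-fold that of all other named nuclei, with 10 or more counts in named nuclei and 5 or more in the class. Of the 5054 members that had 10 counts, 547 (10.8%) were amacrine-concentrated. The share over all control peaks tested, 5.11%, includes these members, and among peaks shared with both libraries it was 3.55%. Peaks shared with the 2-week library only gave 19.5% and peaks shared with the 4-week library only 6.94%. At 50 or more and under 200 counts the shares were 10.6% of members, 7.98% of peaks shared with both and 9.60% of all control peaks, members included. In this band the members' share was near the background. Median counts in the band were 93 for members and 138 for peaks shared with both, so strength was not fully equal.

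Bipolar regions were scarce among the members. Only 75 members (1.48%) were bipolar-concentrated, where all control peaks gave 11.6% and shared peaks 13.5%, and at 50 or more and under 200 counts the members gave 1.38% and shared peaks 20%. Müller-concentrated members numbered 263 (5.20%, against 3.77% of all control peaks), endothelial-concentrated ones 151 (2.99%, against 4.51%), cone-concentrated ones 54 (1.07%, against 1.7%) and rod-concentrated ones 12 (0.237%, against 1.67%). These shares moved with the stricter removal of low promoter-share nuclei. The Müller-concentrated share became 2.11% of members against 4.32% of all control peaks, with 67 of the 263 among them, the rod-concentrated share 3.41% against 4.48% and the bipolar-concentrated share 3.39% against 14.6%. Horizontal-like, ganglion-like, pericyte-like and microglia-like nuclei were fewer than 50 and were not read by this rule. In all, 4011 members (79.2%) were concentrated in no class, 1011 in 1 class, 44 in 2 and 1 in 3.

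Read from the class side, 547 of the 2777 amacrine-concentrated control peaks (19.7%) were members, as were 12.8% of the Müller-concentrated and 1.19% of the bipolar-concentrated ones, against 9.31% of all control peaks. Among peaks of 50 or more and under 200 counts these shares were 19.9% for amacrine, 15.03% for Müller and 1.80% for bipolar, against 18.1% of all. Leaving out the nuclei under 60% promoter share left 10.8% of members amacrine-concentrated, with 416 of the 547 among them, and the stricter removal left 10.7%, with 309 of them, while the share among peaks shared with both was 4.33% and 6.38%. Among all control peaks, members included, it was 5.83% and 7.66% with these removals. Naming each nucleus by its highest marker score instead gave 4.96% of members, 2.12% of shared peaks and 3.01% of all control peaks.

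The 547 amacrine-concentrated members were weaker still, with a median of 76 counts, and 20 in amacrine-like nuclei (5 to 95). Their fold over the other named nuclei had a median of 5.08 and a highest value of 20.5. They lay a median of 3836 bp from the nearest peak of another library, 51 (9.32%) were at promoters, and 521 genes were nearest to them. Nuclei of cluster 14 had 4400 CPM in these members and 20101 CPM in the 1582 amacrine-concentrated peaks shared with both libraries, a ratio of 21.9%. Clusters 16 and 17 had 3592 and 3448 CPM in the members and 41522 and 48368 CPM in the shared peaks, ratios of 8.65% and 7.13%.

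Cluster 14 was also the amacrine-like cluster whose number of nuclei differed most between libraries. Its nuclei named amacrine-like numbered 204 in Ctrl, 31 in WIF1-2w and 18 in WIF1-4w, those of cluster 16 numbered 119, 93 and 56, and those of cluster 17 numbered 79, 80 and 37. With its ganglion-like and unnamed sub-clusters, cluster 14 had 284, 51 and 28 nuclei. The libraries were clustered together without a step to align them, and rod-like clusters differed in number too. Rod-like cluster 1 had 216, 2436 and 733 nuclei and rod-like cluster 2 had 1354, 327 and 609. Whether sub-clusters with 0 nuclei in a library reflect this was not tested. The amacrine-like sub-cluster 14.7 (21 control nuclei, 0 in the other libraries) had a median promoter share of 59.5% and a median of 21770 ATAC counts. Members took 4.27% of its counts, and it alone held 5.02% of all member counts. These were 22879 of the 76365 member counts of amacrine-like nuclei. Pax6 was not among the 6 amacrine markers of sub-cluster 14.7, and 19.2% of its nuclei had been called doublets and left out. Sub-cluster 14.1 (44, 11 and 9 nuclei), which is unnamed and outside the amacrine-like class, had similar values, with 59.8%, 11574 counts and 4.34%, and held 5.57%. Kcnip1 and the noncoding genes Gm10800 and Gm26917 were among the leading genes of both 14.7 and 14.1. Sub-cluster 14.5 (28 control nuclei, 0 in the others) had a promoter share of 69.7% and 3.33% of its counts in members. A smaller number of such nuclei in the other libraries and less open chromatin in each cannot be told apart from peak lists.

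Among the amacrine-concentrated members, the one with the most amacrine-like counts was the Slc6a12 promoter printed above. It had 95 amacrine-like counts, from 47 of 402 nuclei, and 41 in all other named nuclei, so amacrine-like CPM was 20.5 times (14.1 to 30.3) as high. By cluster it stood at 20.9 CPM in cluster 14, 84.1 in cluster 16 and 11.7 in cluster 17, so the glycine-type cluster 16 was highest. The nearest peak of another library was 4188 bp away. Of the 95 counts, 14 came from nuclei under 60% promoter share.

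The next 11 amacrine-concentrated members by amacrine-like counts held 55 to 83 of them. Rph3a, which encodes the synaptic vesicle protein rabphilin, had a member 7574 bp from its start (chr5:121017654-121018428) with 58 counts and a fold of 10.9 (7.30 to 16.4). That region was at 76.2 CPM in cluster 17, 14.96 in cluster 14 and 3.43 in cluster 16. Mylip, a ubiquitin ligase that lowers the LDL receptor, was the nearest gene, at 53073 bp, to a member with 56 counts and a fold of 10.8 (7.16 to 16.3), highest in cluster 16 at 60.1 CPM. The clusters were closer at Gpx3 (22.4, 20.6 and 17.6 CPM in clusters 14, 16 and 17) and at the rhomboid-like gene Rhbdl3 (20.9, 27.5 and 32.3 CPM).

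At others, nearly all amacrine-like counts came from cluster 14, which held most of the class's ATAC counts. Kcnk9 encodes a two-pore potassium leak channel, and of the 67 amacrine-like counts of the member 983 bp from its start (chr15:72547323-72548138) 65 were in cluster 14, 0 in cluster 16 and 2 in cluster 17, or 32.4, 0 and 5.86 CPM. Cdc42ep4, an effector of the GTPase Cdc42, had 52 of 55 in cluster 14, and the nuclear receptor gene Ppard 51 of 56. Other classes had counts there too: other named nuclei held 97 at Kcnk9, 72 of them rod-like (4.83 CPM), 55 at Cdc42ep4 (6 of them Müller-like) and 112 at Ppard (14.3 CPM in Müller-like nuclei, beside 25.4 CPM in cluster 14). Of the Ppard member's 56 counts, 34 were in nuclei below the 1st percentile of promoter share, as were 33 of the 63 at Gpx3, a secreted glutathione peroxidase.

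Iffo1 (83 counts, fold 5.13), Rhbdl3 (69, 7.01), the hypoxia factor gene Hif1a (66, 6.14), Akap1 (59, 5.44) and the kinase gene Mapkapk2 (58, 7.12) made up the remainder of the named members. Each was present in all 3 clusters, with 2 counts in cluster 17 at Hif1a and 3 at Mapkapk2 as the lowest. The Akap1 member, whose window is printed above, held 14 of its 59 counts in nuclei under 60% promoter share. Rnf222 and Cybrd1, also printed, had 42 and 35 amacrine-like counts.

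**Figure D4:**
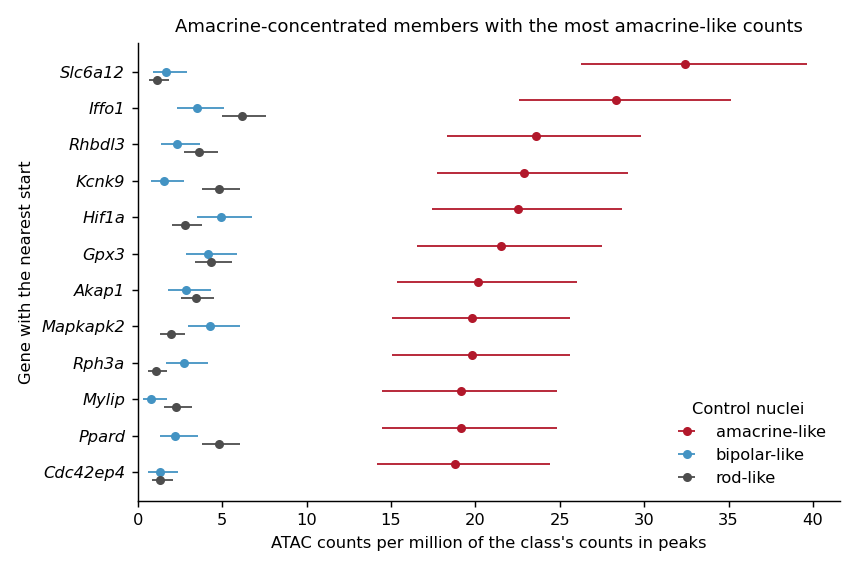
CPM of the 12 amacrine-concentrated members with the most amacrine-like counts (y axis, by nearest gene) in amacrine-like, rod-like and bipolar-like control nuclei, with exact 95% Poisson intervals for counting error. Slc6a12 stands at 32.4 CPM in amacrine-like nuclei, and Cdc42ep4, the lowest of the 12, at 18.8 CPM.

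A list of 61 amacrine identity and transmitter genes was read next. Of its 52 genes nearest to any control peak, 14 (26.9%) were nearest to a member and 6 (11.5%) to an amacrine-concentrated one, against 18.6% and 2.61% of all 19989 genes. By peaks, 22 of the 203 peaks of these genes (10.8%) were members, against 9.31% of all control peaks. The 52 genes had 203 control peaks and all 19989 genes 54429, so the shares by genes are not over equal numbers of peaks. All naming markers of amacrine-like nuclei were on this list, and amacrine-concentrated members were chosen by counts in those nuclei. An excess of such members at these genes is therefore not independent of the naming. Amacrine-concentrated shared peaks at these genes were not counted. Calb2, which encodes calretinin, had a member 21177 bp away with 30 amacrine-like counts and a fold of 6.80, only 3 bp from a peak of another library. Gad2, which makes GABA, had one 1218 bp from its start with 24 counts and a fold of 5.74. Neurod2 (23 counts), Slit2 (18), Prdm13 (13) and Six3 (13), which are developmental regulators and a guidance cue, had members with folds of 4.11 to 4.55. The lower ends of these fold intervals were 1.95 to 2.51, under the 4-fold rule. Gaps to a peak of another library were 1824, 2380, 112 and 105 bp in the same order. The Six3 member lay 99086 bp from the start, and 7 of its 13 counts came from nuclei under 60% promoter share. Further genes of the list nearest to a member that was not amacrine-concentrated included Slc6a9, Chat, Tac1, Ebf3, Nfix, Tcf4 and Cntn6.

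Of 56 Wnt pathway genes with a control peak, 15 (26.8%, against 18.6% of all genes) were nearest to a member, with 21 of their 195 peaks (10.8%, against 9.31%) as members. None of the 56 was nearest to an amacrine-concentrated member, as were 2.61% of all genes, and the lists of ganglion, bipolar, Müller glia, immediate early and GABA or glycine receptor genes also had 0. The 15 Wnt list genes nearest to a member included the nuclear effectors Tcf7l2 and Ctnnb1 and the destruction-complex genes Apc and Gsk3b. Also among the 15 were the receptors and co-receptors Lrp5, Fzd4, Fzd5, Fzd6 and Ror2, and the ligands Wnt7a, Wnt11 and Wnt16. The last were the receptor-turnover regulators Rspo1 and Znrf3, and Tcf4, which encodes an E protein and is not the effector Tcf7l2. Synaptic adhesion and guidance genes had members at 16 of 61 (26.2%), 3 of them amacrine-concentrated (Nrxn2, Slit1 and Slit2), and 34 of 329 peaks (10.3%).

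Lists of other retinal classes, and immediate early genes, were below the control-wide 9.31% by peaks. By genes, 4 of 25 ganglion genes (16%), 5 of 36 photoreceptor genes (13.9%), 8 of 29 bipolar genes (27.6%), 3 of 25 Müller glia genes (12%) and 4 of 20 immediate early genes (20%) were nearest to a member, against 18.6% of all genes. Ganglion genes had 5 of 68 peaks as members (7.35%), photoreceptor genes 16 of 207 (7.73%), bipolar genes 10 of 123 (8.13%), Müller glia genes 5 of 92 (5.43%) and immediate early genes 4 of 75 (5.33%). Among photoreceptor genes Rorb had amacrine-concentrated members, 2 of them, and its RNA was 1363 CPM in amacrine-like control nuclei and 785 CPM in the other named nuclei. GABA and glycine receptor genes had 0 members among 55 peaks, and 3 of 55, the limit that a count of 0 allows, would be 5.45%.

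For each other class the 3 concentrated members with the most class counts are named, and the gaps of these 15 members ran from 87 to 4821 bp. For bipolar-like nuclei they were at Aatk (252 bipolar-like counts, fold 4.91), Mpp2 (fold 6.22) and the neurotrophin receptor gene Ntrk2 (fold 7.30), with gaps of 1454, 184 and 87 bp. The rod-concentrated members with the most counts lay nearest to March1 (439 rod-like counts, fold 4.01), Cpne6 (356, 4.05) and Styx (210, 6.99), and the first had a gap of 93 bp and a distance of 349122 bp. Cone-concentrated ones were nearest to Rars, Gm27239 and Nrip1 (31, 26 and 21 counts), Müller-concentrated ones to Nhlrc2, Gm14041 and Gm30731 (17 each), and endothelial-concentrated ones to Gm36635 (32 counts, fold 18.9), Zbtb11os1 and Gm47921.

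Members were spread over 3719 nearest genes. Of these, 2839 had 1 member, 615 had 2 and 265 had 3 or more. The most were at Pcdh15, a cadherin of photoreceptor and hair cells, with 13 of its 48 control peaks, and at Hrh1, the histamine H1 receptor gene, with 9 of 12. Atg7, an autophagy gene beside Hrh1, followed with 9 of 19, and other genes with many were Ank3 (8 of 37), 4933411O13Rik (8 of 22), Rora (7 of 30), Rims2 (7 of 47), Scaf8 (7 of 15) and Nubpl (7 of 10).

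Along the genome, the 500-kb bin with the most members was on chromosome 6 from 114500001, with 18 of its 37 control peaks. These ran from 114507453 to 114637207 across Atg7 and Hrh1, had a median of 47 counts, and included 4 amacrine-concentrated and 3 Müller-concentrated members. The bin's peaks summed to 180 CPM in Ctrl (37 peaks), 168 in WIF1-2w (34) and 166 in WIF1-4w (33). The sums are over each library's own peaks, so they are not over the same regions. The unplaced scaffold GL456212.1 had 11 members among 13 control peaks and sums of 17.5, 1.06 and 1.78 CPM over 13, 1 and 3 peaks. Between chromosomes the share of members ran from 3.65% on X (36 of 985) and 6.67% on 11 to 12.4% on 12, and chromosome Y had 6 of 30.

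RNA did not enter the choice of members, but the amacrine-like nuclei were named from RNA markers, and amacrine-concentrated members were chosen by counts in those nuclei. In amacrine-like control nuclei, 90 of 300 measurable genes nearest to amacrine-concentrated members (30%) were at least 2-fold above the other named nuclei, against 11.2% of all genes. For the genes nearest to amacrine-concentrated shared peaks it was 322 of 794 (40.6%), and for genes nearest to any member 12.1%. Kcnk9 RNA was 15.6 CPM in amacrine-like nuclei and 0.346 in the rest, Slc6a12 31.6 and 0.622, Gad2, itself a naming marker, 66.6 and 2.83, Rph3a 164 and 20.04. At Hif1a (547 and 458 CPM), Iffo1 (50.1 and 46.8) and Mapkapk2 (32.6 and 30.7) the levels were nearly the same.

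Against the other libraries, genes nearest to amacrine-concentrated members were near all genes in amacrine-like nuclei and lower more often over all nuclei. In amacrine-like nuclei 232 of the 521 genes had 30 or more UMIs over the control and 2-week libraries together, and their median log2 ratio of 2 weeks to control, on log2(CPM + 1), was 0.03, where all genes had -0.02. At least 2-fold lower were 21 of them (9.05%, against 7.78% of all genes), and at least 2-fold higher 7 (3.02%, against 2.99%). At 4 weeks the median over 226 genes was 0.09, against -0.02, with 15 (6.64%, against 8.82%) lower and 4 (1.77%, against 1.4%) higher by 2-fold. Genes nearest to amacrine-concentrated shared peaks had medians of 0.10 and 0.09, with 4.93% and 6.80% lower by 2-fold at 2 and 4 weeks. Over all kept nuclei, 16 of 337 genes nearest to amacrine-concentrated members (4.75%, against 1.39% of all genes) were at least 2-fold lower at 2 weeks and 36 of 331 (10.9%, against 2.51%) at 4 weeks, and for genes nearest to amacrine-concentrated shared peaks it was 4.77% and 14.2%. Amacrine-like nuclei were 402 of the 7157 kept control nuclei, 204 of 8829 at 2 weeks and 111 of 8840 at 4 weeks, and the part of these numbers in the values over all nuclei was not tested. All these ratios share the control library, and within the amacrine-like class cluster 14 was a larger part in the control.

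Slc6a12 RNA in amacrine-like nuclei was 31.6 CPM (24.4 to 40.3) in the control. It was 25.1 CPM (13.7 to 42.1) in WIF1-2w and 43.0 CPM (25.9 to 67.1) in WIF1-4w, and the intervals overlap. Gad2 was at 66.6, 71.6 and 56.5 CPM and Kcnk9 at 15.6, 17.9 and 18.1 CPM, again with overlapping intervals. At these 3 genes a member was called in the control alone, and the intervals of the RNA ratios to control all included 1. Rph3a was 164 CPM in the control, 294 at 2 weeks (ratio 1.79, 1.48 to 2.17) and 192 at 4 weeks (1.17, 0.914 to 1.49).

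Calb2 was lower in both other libraries, at 95.8, 50.1 and 43.0 CPM, or 0.524 (0.339 to 0.781) and 0.449 (0.264 to 0.719) times the control. Akap1 was 29.7, 10.7 and 24.9 CPM, a ratio of 0.362 (0.128 to 0.835) at 2 weeks and 0.839 (0.398 to 1.61) at 4 weeks. Cdc42ep4 was at 10.7 CPM (22 UMIs) in Ctrl, 10.7 CPM (6 UMIs) in WIF1-2w and 0 UMIs in WIF1-4w, where the interval reached 8.34 CPM. Galnt18 and Gfra1, a GDNF receptor gene, each with 2 amacrine-concentrated members, were at 315, 410 and 441 CPM and at 98.7, 149 and 122 CPM. Hrh1, with 3 such members, had 0 UMIs in the amacrine-like nuclei of all 3 libraries.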

How the data were processed

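Members and gene lists were chosen with earlier results of these data known. Values are whole-number counts as deposited by the authors, per the file headers: for every barcode, UMIs of each gene and ATAC counts of each peak of that library. The submitters' processing notes name Cell Ranger ARC 2.0.1, Seurat 5.0.1 and Signac 1.12.0, without roles, and mm10. Peak starts were shifted by 1 to count from 1. Nuclei with 500 UMIs, 300 genes and at most 10% mitochondrial UMIs were kept after a doublet call at 0.8% per 1000 barcodes, and clustered with scanpy 1.11.5 (2000 genes, 30 components, 15 neighbours, resolution 1). Names needed 3 fixed markers per cluster and 4 per sub-cluster.

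Class counts were scaled to CPM. Intervals are 95%: Clopper-Pearson, exact Poisson or conditional binomial. A rest at 0 was set to 3 counts. The step that sums and calls was tested on simulated data. Named members were the 10 with the most counts in kept nuclei, the 12 amacrine-concentrated with the most amacrine-like counts, 3 for each other class, those at amacrine list genes, those nearest the limit, and the 10 genes with most members, of which 1 is not reported here. Sequences at peak centres were planned; no genome was used, so RefSeq promoter windows were read, in the same order. For the same reason GC content was read only in these windows.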

Additional observations from a re-analysis of the deposited data

Results flagged for a closer look

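Slit2, nearest gene to an amacrine-concentrated member 2796 bp from its start, had RNA ratios to control in amacrine-like nuclei on opposite sides of 1, and for that it is listed here. The 2-week ratio was 0.557 (0.447 to 0.688) and the 4-week ratio 1.57 (1.34 to 1.82), from 325, 181 and 509 CPM in the control, 2-week and 4-week libraries. Both ratios share the control library, each group is 1 library, and the difference between the times was not tested. Slit2 RNA was 627 CPM in the other named control nuclei, higher than in the amacrine-like ones, and the part of RNA from other cells in these values was not tested.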

How the results depend on the processing

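The share of control peaks that were members was 9.59% when sharing needed over 50% of the shorter peak, 8.34% and 6.80% when no other-library peak could lie within 250 or 1000 bp, 13.3% and 14.02% against the 2-week or the 4-week library alone, and 8.30% among peaks of 50 or more counts. The amacrine-concentrated share of members was 49.3% at 2-fold and 1.15% at 8-fold (shared with both: 19.1% and 0.637%), 42.7% per nucleus in place of CPM (15.9%), 9.82% with doublets kept (2.95%), 4.96% with names given by the highest marker score (2.12%) and 12.01% among members with no neighbour within 1000 bp. Over the 4 other settings run it was 10.5% to 10.8%. Members at promoters were 5.53% within 500 bp, 12.3% within 2000 bp, 6.26% from the peak's centre and 7.32% with RefSeq starts, a choice made after seeing the data. The amacrine-like share of member counts, whose alternatives were all chosen after seeing the data, was 17.03% with doublets kept, 13.3% by marker score, and 14.6% and 10.1% without nuclei of low promoter share. The median log2 RNA ratio at 4 weeks was -0.0023 by marker score, and 0.01 to 0.09 over the other 4 settings. At 2 weeks it was 0.01 to 0.03 over 5 settings. Why values moved was not tested, apart from what each setting changes by construction. The GC content of whole members was not run. No paired analysis was possible because each group has 1 library. Amacrine-concentrated members had a median of 20 amacrine-like counts, and shared peaks 45, so folds of single members are imprecise.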
